A study of Mus musculus with 2 samples.

Results

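The peak-rich windows of the mouse autosomes are the 1-Mb stretches that held the most regions enriched for 5-hydroxymethylcytosine (5hmC) in mouse embryonic stem (ES) cells. Chromosomes 1 to 19 (build mm9) were divided into windows of 1 Mb that do not overlap, each enriched region (peak) was placed by its midpoint, and a window was kept if the peaks of both libraries added up to at least 90. Of 2416 autosomal windows with a peak, 121 were kept, which is 5.01%. They held 12129 of the 121661 peaks in the 2 lists. The windows were chosen by their summed peak numbers, so these numbers are a description and carry no test.

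5hmC is made from 5-methylcytosine by the Tet dioxygenases, iron-dependent enzymes that also oxidise it further. The mark is an intermediate of active DNA demethylation as well as a lasting mark, and in ES cells it is known to lie at enhancers, at promoters of intermediate CpG content and along gene bodies. Ascorbic acid (AA, vitamin C) is a reducing agent that supports dioxygenases of this family.

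The ES cells were of strain 129SvEv. Cells of 1 library were kept with 100 µM AA for 24 h, and the other library, whose label names no incubation, stands for the cells without AA in the series' design. In both, sonicated genomic DNA was pulled down with a kit that puts biotin on 5hmC. Each group had 1 library, and a single peak list was deposited for each. The 2 file headers carry each other's sample name. The lists are therefore called AA-labelled and no-AA-labelled after the record. If the headers are right instead, each direction given between them has the opposite sign. The AA-labelled library had 11907082 tags (aligned reads kept once per position) and the no-AA-labelled library 18398162, and the fragment lengths estimated by the caller were 229 and 165 bp. With 1 library per group there was no replicate error and no test between groups. Intervals are 95% exact intervals of counts, shares or ratios of counts, or order-statistic intervals of medians. For a difference of medians, the half-widths of the 2 median intervals were joined as the root of their summed squares, an approximation. All intervals cover counting error or the spread over peaks only. No gene annotation or genome sequence of build mm9 was used here, so the windows carry positions but no gene names and no sequence.

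Peak-rich windows lay mostly on chromosomes 8 and 1. Chromosome 8 had 34 of its 128 windows in the set (26.6%) and chromosome 1 had 39 of 194 (20.1%), so 73 of the 121 windows (60.3%) lay on chromosomes that hold 13.3% of all windows. On the other 17 autosomes 48 windows were peak-rich, or 2.29% of theirs. Chromosome 7 had 7, chromosomes 10, 15 and 17 had 5 each, chromosomes 5, 6, 9, 11 and 16 had 3 each, chromosomes 2, 4, 13 and 14 had 2 each, and chromosomes 12, 18 and 19 had 1 each. Chromosome 3 had none, and its fullest window held 86 peaks. The median window held 74 peaks on chromosome 8 and 62 on chromosome 1, against 37 (chromosome 12) to 55 (chromosome 11) on the others. Relative to the median of its own chromosome, a peak-rich window held between 1.22 and 3.62 times as many peaks, and 29 of the 121 held at least 2 times as many. A background of the peaks, their tag density divided by the authors' fold enrichment, was also somewhat higher on chromosome 8, at 1.16 times the median of all autosomal peaks in the AA-labelled list and 1.20 times in the other. It was 1.02 and 1.04 times on chromosome 1, and from 0.897 to 1.12 and from 0.891 to 1.09 times on the other 17 autosomes. Its part in these numbers was not tested.

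**Figure D1:**
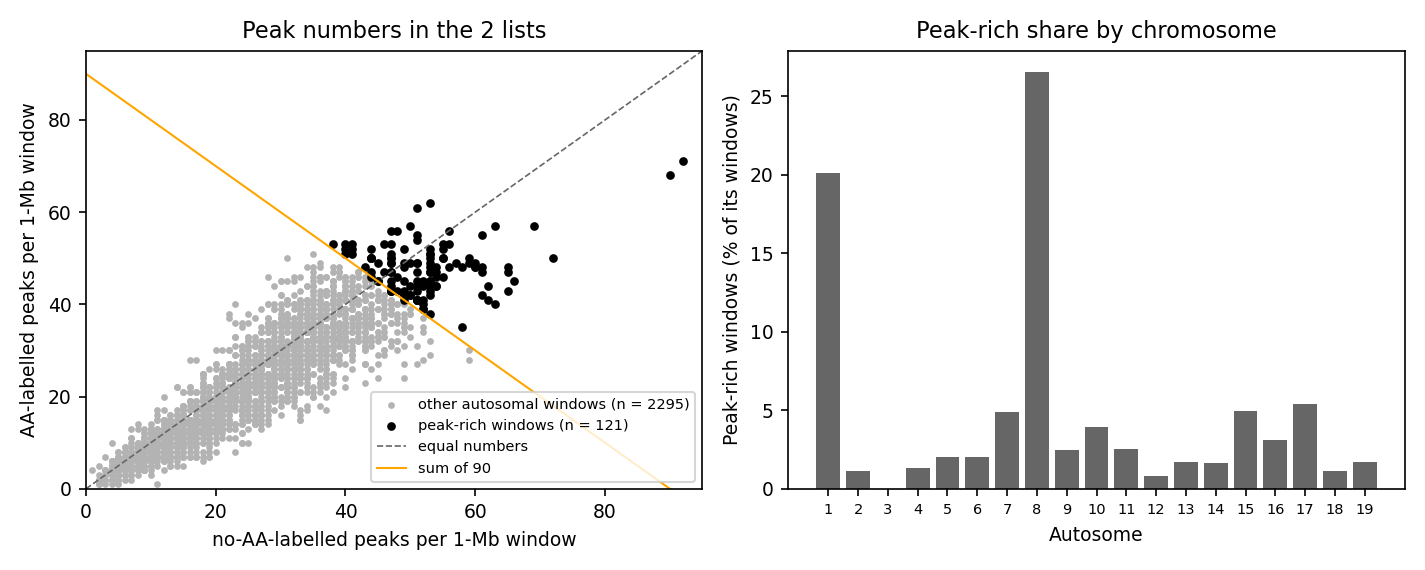
Left, AA-labelled against no-AA-labelled peaks in each autosomal 1-Mb window, with the 121 peak-rich windows in black and the other 2295 in grey; the orange line marks a sum of 90 and the dashed line equal numbers. Right, the percentage of each autosome's windows that were peak-rich. The 2 windows of chromosome 4 stand alone at the upper right, and chromosomes 8 (26.6%) and 1 (20.1%) stand above all other autosomes.

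Neighbouring windows were often peak-rich together. There were 26 runs of adjacent peak-rich windows, which held 65 of the 121 windows (53.7%), and 56 windows stood alone. Of the runs 15 were of 2 windows, 9 of 3 and 2 of 4, and 20 of the 26 were on chromosomes 1 and 8. The 2 longest spanned 46 to 50 Mb of chromosome 8, with 200 and 223 peaks (AA-labelled first), and 181 to 185 Mb of chromosome 1, with 204 and 209. Away from these chromosomes, the runs were at 145 to 147 Mb of chromosome 4, 112 to 114 Mb of chromosome 6, 29 to 32 Mb of chromosome 7, 121 to 123 Mb of chromosome 14, 100 to 102 Mb of chromosome 15 and 90 to 92 Mb of chromosome 16.

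The 2 fullest windows were neighbours on chromosome 4. From 145 to 146 Mb the lists held 71 (AA-labelled) and 92 peaks, and the window from 146 to 147 Mb held 68 and 90. They held 3.62 and 3.51 times as many peaks as the median window of chromosome 4, and no other peak-rich window reached 3 times the median of its chromosome. The next 2 were on chromosome 8, at 67 Mb with 57 and 69 peaks and at 48 Mb with 50 and 72. The fifth was on chromosome 18 at 37 Mb, with 57 and 63 peaks. The sixth and seventh were on chromosome 1, at 74 Mb with 55 and 61 peaks and at 39 Mb with 62 and 53. The remaining 3 of the first 10 were on chromosome 8, at 87 Mb with 48 and 65, at 23 Mb with 61 and 51, and at 35 Mb with 56 and 56. Over all 121 windows the sum ran from 90 to 163 with a median of 98, and the medians by list were 48 (AA-labelled) and 51. Over all autosomal windows they were 22 and 25.

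The threshold cut through a continuous range. Just inside it, 30 windows had sums of 90 to 92, with 38 to 53 peaks in the AA-labelled list and 38 to 53 in the other. Just outside, 32 windows had sums of 87 to 89, with 28 to 48 and 39 to 59 peaks. The peaks of these windows had nearly the same median fold enrichment, at 6.67 inside and 6.62 outside in the AA-labelled list and at 5.97 and 5.99 in the other.

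Windows that were dense in one list were dense in the other. Windows with at least 45 AA-labelled peaks numbered 130, and their no-AA-labelled numbers ran from 28 to 92 with a median of 47, against 25 over all autosomal windows. All 130 were above that median. Windows with at least 48 no-AA-labelled peaks numbered 122, and their AA-labelled numbers ran from 24 to 71 with a median of 44, against 22, again with all 122 above. Of these windows 85 and 88 were in the peak-rich set, which is 65.4% and 72.1% of the windows so chosen and 70.2% and 72.7% of the peak-rich windows.

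The question put by the design was whether AA changed 5hmC. Pooled over the autosomes at the threshold of 90, no difference in the ratio of peak numbers was detectable between the peak-rich windows and the rest. The threshold mattered, and so did the chromosomes, which are taken apart below. Their 5789 AA-labelled peaks stood against 6340 in the other list, which gives a ratio of 0.913 (0.881 to 0.946), against 0.907 (0.896 to 0.918) in all other autosomal windows, and the odds ratio between both was 1.01 (0.969 to 1.05). Against the 465 next-densest windows, with sums of 70 to 89, it was 0.968 (0.929 to 1.01). As a log2 difference from other windows the value was 0.0098 (-0.045 to 0.064). With a sum of at least 80 it was 0.049 (0.0094 to 0.089), an interval without 0, and with at least 100 it was -0.052 (-0.13 to 0.025). Fewer AA-labelled than no-AA-labelled peaks were found in 84 of the 121 windows, beside 63.7% of all autosomal windows, and more in 31, beside 27.9% of all. The ratio of single windows ran from 0.603 to 1.39 with a median of 0.905, and the counting interval of every one of the 121 included the ratio of all autosomal peaks, 0.908. Over all autosomal windows 1.24% had an interval outside it.

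The 3 lowest ratios were on chromosome 8. They were found at 13 Mb, with 35 against 58 peaks and a ratio of 0.603 (0.385 to 0.934), at 63 Mb with 40 against 63 (0.635, 0.416 to 0.959) and at 72 Mb with 41 against 62 (0.661, 0.435 to 0.997). The next-lowest, at 126 Mb of chromosome 10, was nearly equal to the last of these, with 43 against 65 (0.662, 0.439 to 0.987). The highest were at 192 Mb of chromosome 1, with 53 against 38 peaks and a ratio of 1.39 (0.902 to 2.17), at 113 Mb of chromosome 11 with 53 against 40 (1.33) and at 120 Mb of chromosome 9 with 52 against 40 (1.30). These windows are the ends of 121 values, which their intervals do not take into account. On chromosomes 1 and 8 together the peak-rich windows had a ratio of 0.887 (0.847 to 0.929) and the other windows of these chromosomes 0.801 (0.773 to 0.830), an odds ratio of 1.11 (1.04 to 1.17). On the other 17 autosomes the ratios were 0.955 (0.902 to 1.01) and 0.922 (0.910 to 0.934), an odds ratio of 1.04 (0.977 to 1.10). Both odds ratios lay above the pooled 1.01. On chromosomes 1 and 8, which held 60.3% of the peak-rich windows, the ratio was lower than elsewhere in both kinds of window. Of the 11 chromosomes with at least 3 peak-rich windows, 9 had a higher ratio in these windows than in their other windows. The peak number ratio also depended on the cutoff. With a p of at most 1e-10 it turned from a log2 value of -0.13 to 0.14, and to 0.99 for peaks of 10-fold enrichment or more.

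Peaks of peak-rich windows were longer, held more tags and had a lower fold enrichment than peaks elsewhere, in both lists. The fold enrichment is the authors' value, the height of a peak over the local background of its library. The median AA-labelled peak measured 1231 bp (quartiles 927 and 1738 bp), where other autosomal windows had 1015 bp. The median no-AA-labelled peak measured 947 bp (733 and 1301 bp), where they had 765 bp. The median peak held 37 tags against 27, the same values in both lists. The median AA-labelled fold enrichment was 6.58 (quartiles 5.34 and 8.17), where other windows had 7.92. The no-AA-labelled one was 5.83 (4.83 and 7.18), where they had 7.12. The authors' score, 10 times the −log10 of p, hardly differed, at 71.4 against 71.2 and 68.3 against 67.9. Within a chromosome the same held where several windows were peak-rich. In all 11 chromosomes with at least 3 peak-rich windows, and in both lists, the peaks of these windows were longer, had more tags and had a lower median fold enrichment than the other peaks of that chromosome. Where 1 or 2 windows were peak-rich, fold was higher in them on chromosomes 4 (8.84 against 7.47 and 7.455 against 6.87) and 18 (9.14 against 8.09 and 7.58 against 7.13). It was lower on the others in both lists. AA-labelled peaks were shorter in the chromosome 2 windows, at 998 against 1009 bp.

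The background of the peaks moved with these differences. Tags per kb and per 1000000 kept tags (tag density), divided by the fold enrichment, stand in for it, although this quotient mixes a mean over the peak with a height and contains the fold itself. Median tag density in the AA-labelled list was 2.47, where other windows had 2.19, and in the no-AA-labelled list it was 2.10, where they had 1.88. It was thus 1.13 and 1.12 times as high in the peak-rich windows. The AA-labelled quotient was 0.377 against 0.275 and the no-AA-labelled one 0.362 against 0.263, or 1.37 and 1.38 times as high. Chromosome 1 had 0.374 in its peak-rich and 0.250 in its other windows in the AA-labelled list, and chromosome 8 had 0.397 and 0.280. No input library was used here.

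**Figure D2:**
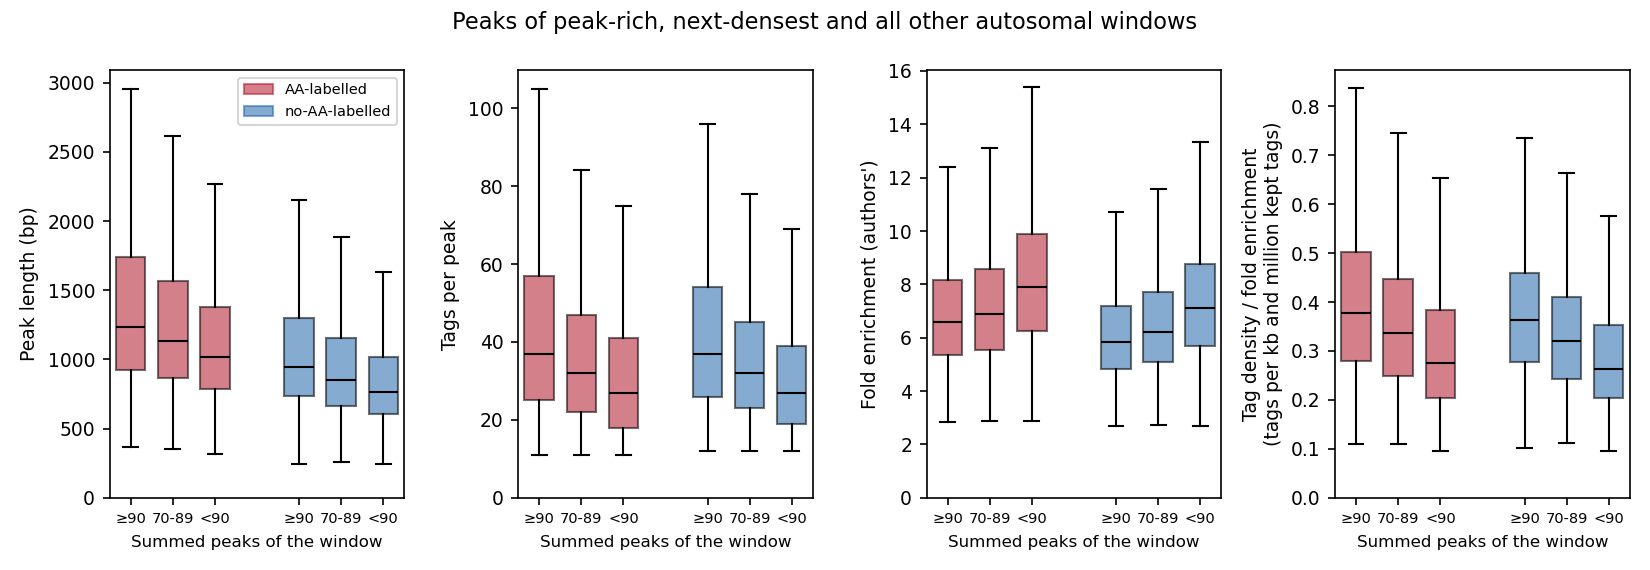
Peak length, tags per peak, the authors' fold enrichment and the tag density divided by that fold, for peaks of windows with summed peak numbers of at least 90, of 70 to 89 and of all below 90, in the AA-labelled (red) and the no-AA-labelled list (blue). Boxes show the quartiles with the median as a line and whiskers reach 1.5 times the box, with more distant peaks not drawn. Peak-rich windows have the longest peaks (medians 1231 and 947 bp) and the lowest fold enrichment (6.58 and 5.83).

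Long peaks were common there and strongly enriched ones rare. Peaks over 2 kb made up 995 of the 5789 AA-labelled peaks in peak-rich windows (17.2%, 16.2% to 18.2%), beside 8.72% in the whole list, and 401 of the 6340 no-AA-labelled ones (6.32%, 5.74% to 6.95%), beside 2.65%. Peaks enriched 10-fold or more numbered 555 in the AA-labelled list (9.59%, 8.84% to 10.4%), beside 21.7% in the whole list. In the no-AA-labelled list they numbered 280 (4.42%, 3.92% to 4.95%), beside 10.4%. Peaks with p at or below 1e-10 made up 20.7% (19.7% to 21.8%) and 17.2% (16.3% to 18.2%), beside 22.9% and 18.4%. The next-densest windows had 17.3% and 14.0%, so this share did not go down with peak number throughout. Of the 100 peaks of highest fold in each list none lay in a peak-rich window, although these windows hold 10.0% and 9.93% of the lists. Of the 100 longest peaks 26 and 27 did, and of the 100 with the most tags 22 and 12 did.

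The trends in fold enrichment and length ran through the whole range of windows and did not begin at the threshold. From windows with 1 to 29 peaks to those with 70 to 89, the median AA-labelled fold enrichment went from 9.90 to 6.89 and the no-AA-labelled one from 8.78 to 6.20, and in peak-rich windows they were 6.58 and 5.83. The share of peaks over 2 kb went from 2.60% through 12.4% to 17.2%, and in the no-AA-labelled list from 0.848% through 3.74% to 6.32%. Peak number and peak form come from the same lists and are not independent measures.

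**Figure D3:**
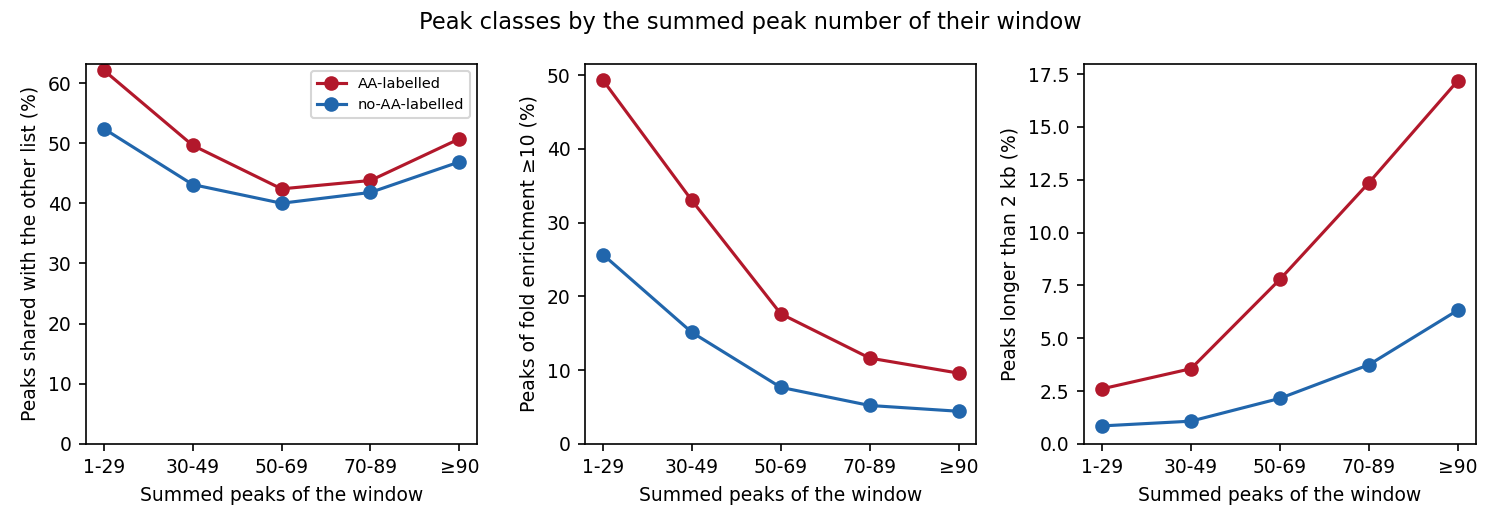
Percentage of peaks shared with the other list (left), with a fold enrichment of at least 10 (middle) and longer than 2 kb (right), by the summed peak number of their window, for the AA-labelled (red) and no-AA-labelled list (blue). The share of fold enrichment of at least 10 goes down to 9.59% and 4.42% and that of long peaks up to 17.2% and 6.32% in peak-rich windows, while the shared percentage is lowest in windows with 50 to 69 peaks (42.4% and 40.0%).

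A small group of peak-rich windows went against this pattern. In 9 windows the median fold enrichment was above that of all other autosomal windows in both lists, a group chosen after its values were seen. They were the 2 windows of chromosome 4 at 145 and 146 Mb, the window of chromosome 18 at 37 Mb, that of chromosome 5 at 105 Mb, that of chromosome 2 at 65 Mb, that of chromosome 8 at 82 Mb, and those of chromosome 1 at 52, 60 and 71 Mb. The highest was the window of chromosome 5, with a median fold enrichment of 9.90 in the AA-labelled and 8.34 in the no-AA-labelled list. That of chromosome 18 had 9.14 and 7.58, and the fuller one of chromosome 4 had 9.10 and 7.58. At the other end, the window at 91 Mb of chromosome 1 had 5.32 in the AA-labelled list and that at 12 Mb of chromosome 8 had 4.73 in the no-AA-labelled list.

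Tags per peak differed within this group. The 2 windows of chromosome 4 had AA-labelled medians of 38 and 35 tags, close to the 38 of the remaining 112 windows, and the other 7 together had 26. The pooled median over their 472 AA-labelled peaks was 29 tags and 1043.5 bp, against 38 tags and 1257 bp in the remaining 112 windows, and 35.6% against 19.4% had a p of at most 1e-10. The quotient of density and fold was 0.262 against 0.388, close to the 0.275 of windows that were not peak-rich. The group was chosen for fold, by which this quotient is divided, so a lower quotient follows from the choice. The share with p of at most 1e-10 and the shared percentages are not independent of that choice either. Of the AA-labelled peaks 65.3% were shared with the other list (60.8% to 69.5%), against 49.4% (48.1% to 50.8%) in the remaining windows, and of the no-AA-labelled peaks 57.8% (53.6% to 62.0%) against 45.9% (44.6% to 47.1%). The windows of chromosome 4 held much of this, and without them the shares were 58.3% (52.8% to 63.6%) and 54.1% (48.8% to 59.3%). Of the 9 windows, 1 in the AA-labelled list (52 Mb of chromosome 1, 47.6%) and 2 in the other (52 and 71 Mb of chromosome 1, 37.7% and 43.6%) were below the remaining windows. Across the 121 windows the median fold enrichments of both lists were correlated, with a Pearson coefficient of 0.862 and a Spearman coefficient of 0.807. The coefficients are a description over windows of single libraries, which share the genome sequence and the pull-down.

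**Figure D4:**
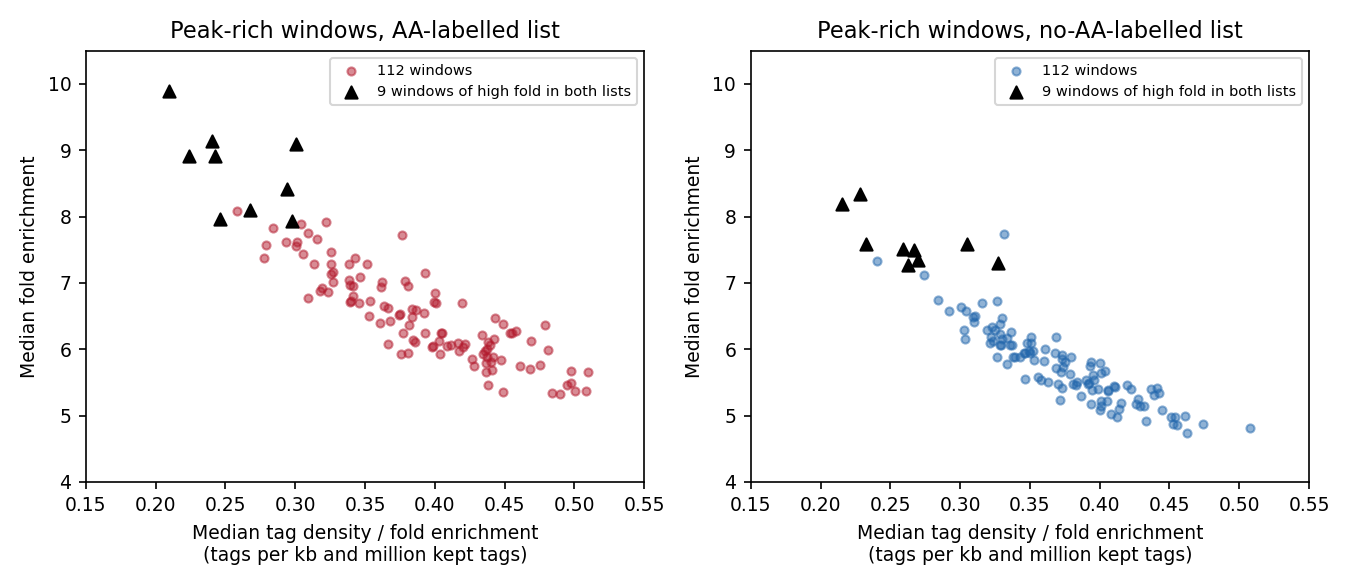
Median fold enrichment of the peaks in each peak-rich window against their median tag density divided by fold, in the AA-labelled (left) and the no-AA-labelled list (right); each point is 1 window. The 9 windows whose median fold is above that of all other autosomal windows in both lists (triangles) lie at the upper left; fold is part of both axes, so the slope itself is built in.

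Pooled over the autosomes, peaks of peak-rich windows were found in both lists somewhat more often than peaks elsewhere. Counting an overlap of at least 1 bp, 2937 of 5789 AA-labelled peaks were shared, or 50.7% (49.4% to 52.0%), beside 47.5% in the whole list and 46.6% (46.2% to 47.1%) in all other autosomal windows. Of the no-AA-labelled peaks 2973 of 6340 were shared, or 46.9% (45.7% to 48.1%), beside 43.6% and 42.8% (42.4% to 43.3%). Peaks covered 6.85% of the length of the peak-rich windows in the AA-labelled list and 5.72% in the other, against 2.57% and 2.13% of all other windows. The part of this coverage in the shared percentage was not tested. The shared percentage was higher still in windows with 1 to 29 peaks, at 62.1% and 52.4%. Within a chromosome the difference was mixed in the AA-labelled list, where the share in peak-rich windows was higher on 5 of 11 chromosomes and lower on 6. Chromosomes 1 and 8 were among the 6, with 50.1% against 56.3% and 53.7% against 55.1%. Outside these 2 chromosomes the AA-labelled share was 49.2% (47.1% to 51.2%) against 45.5% (45.0% to 45.9%), with 82.0% in the chromosome 4 windows. In the no-AA-labelled list 9 of 11 chromosomes had the higher share in their peak-rich windows.

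Sharing depended on how strong and how long the peaks were. In the weakest 20% of the AA-labelled list by score, 33.4% of the peaks in peak-rich windows were shared (30.7% to 36.2%) against 29.0% (28.2% to 29.9%) elsewhere, and in the strongest 20% 78.4% (75.8% to 80.9%) against 77.8% (77.0% to 78.6%). The weakest no-AA-labelled peaks gave 29.0% (26.5% to 31.6%) against 24.1% (23.4% to 24.9%) and the strongest 78.4% (76.0% to 80.7%) against 77.3% (76.5% to 78.1%). The difference was wider in the middle 20% by score than at both ends. There it was 48.7% (45.8% to 51.6%) against 41.8% (40.8% to 42.7%) in the AA-labelled list. In the no-AA-labelled list it was 41.7% (38.9% to 44.5%) against 36.0% (35.1% to 36.9%). By length the picture was different. In the middle 20% of the AA-labelled list by length 48.5% (45.4% to 51.6%) against 49.5% (48.5% to 50.5%) were shared, and in the longest 20% 59.5% (57.3% to 61.7%) against 54.7% (53.7% to 55.7%). No length class of the no-AA-labelled list had the higher share in peak-rich windows, with 43.1% (40.3% to 46.0%) against 46.1% (45.2% to 47.1%) in the middle 20% and 59.7% (57.6% to 61.7%) against 61.0% (60.1% to 62.0%) in the longest. By window, the shared percentage of the AA-labelled peaks ran from 24.5% at 113 Mb of chromosome 11 to 85.9% at 145 Mb of chromosome 4. That of the no-AA-labelled peaks ran from 29.8% at 157 Mb of chromosome 1 to 69.8% at 105 Mb of chromosome 5.

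The signal where both lists had a peak was compared in pairs that overlapped one to one, of which 2867 of 26954 lay in peak-rich windows. The median tag density over these pairs was 2.53 in the AA-labelled and 2.19 in the no-AA-labelled library. The median log2 ratio was 0.21 (0.19 to 0.22, quartiles 0.02 and 0.43), against 0.22 (0.21 to 0.22) in all other autosomal windows. The difference of these medians was -0.01 (-0.02 to 0.01), and it does not depend on the scaling of the libraries. Among peaks with p at or below 1e-10 it was -0.051 (-0.095 to -0.0068), lower in peak-rich windows by more than the interval. The ratio itself depends on the scaling. It became -0.42 without scaling and -0.32 with scaling to the tags inside peaks. All 121 windows had a median pair ratio above 0 with the first scaling, as had 455 of the 465 next-densest windows. The median over windows was 0.209 in the peak-rich and 0.217 in the next-densest ones. In peak-rich windows it ran from 0.03 at 93 Mb of chromosome 1 to 0.48 at 155 Mb of chromosome 1. There were 13 to 58 pairs per peak-rich window. Over 2-fold higher density in the AA-labelled library was found in 28 pairs (0.977%, 0.650% to 1.41%), beside 1.47% of all pairs. Over 2-fold lower density was found in 0 of 2867, which allows up to 0.129%, beside 0.0223% of all pairs. Both counts were made with the first scaling and depend on it as the ratio does.

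The median ratio was higher in stronger pairs, inside and outside the peak-rich windows. In the weakest 20% of pairs by score the median log2 ratio was 0.17 (0.14 to 0.19) against 0.14 (0.13 to 0.15) elsewhere, and in the strongest 20% it was 0.36 (0.30 to 0.40) against 0.41 (0.39 to 0.42). Peak-rich windows held 385 pairs of the strongest class and 591 of the weakest, beside 4590 and 4705 in all other autosomal windows. The classes between held 635, 640 and 616 pairs from weaker to stronger, beside 4637, 4622 and 4606. Over all classes there were 2867 pairs beside 23160.

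The highest density ratios in peak-rich windows, taken over pairs in which 1 library or both had 30 tags or more, were found on chromosomes 1 and 8. The first was chr1:74839556-74840730, where 59 AA-labelled tags lay in a peak of 1175 bp and 20 tags of the other library in one of 725 bp. Its log2 ratio was 1.49 (0.74 to 2.30). Next came chr1:60865875-60866928 with 53 and 25 tags (1.38), chr8:82145951-82147907 with 123 and 76 (1.33), chr8:91768688-91769968 with 79 and 61 (1.30) and chr1:188790065-188793292 with 239 and 119 (1.25, 0.93 to 1.58). The last was the fullest of these in tags and its interval the narrowest.

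The lowest ratios were led by 2 sites in the chromosome 4 windows. At chr4:146555346-146556181 there were 19 AA-labelled and 65 no-AA-labelled tags, a log2 ratio of -0.99 (-1.81 to -0.23), and at chr4:145727532-145728964 there were 46 and 82 (-0.96). The others were chr8:129228221-129229177 with 16 and 43 tags (-0.94), chr1:183212155-183214231 with 41 and 70 (-0.79) and chr13:66597642-66599215 with 38 and 64 (-0.78). In 3 of these 5 the AA-labelled peak was much the longer, and in tags per peak their ratios were -0.21 (chr4:145727532-145728964), -0.14 (chromosome 1) and -0.12 (chromosome 13), with intervals that included 0. The interval of the chromosome 8 site in tags per peak also included 0, at -0.80 (-1.73 to 0.059). Only chr4:146555346-146556181 stayed below 0, at -1.15 (-1.97 to -0.39). These 10 sites are the ends of a distribution, a choice for which the intervals make no allowance.

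The shared site of highest mean fold enrichment was chr4:146134744-146135927, with 100 AA-labelled tags at 19.44-fold and 122 no-AA-labelled tags at 15.70-fold. The 19.44-fold was also the highest AA-labelled fold of all peaks in these windows, and 141 peaks elsewhere in that list were above it. The next were chr1:58670397-58671003 at 17.47-fold and 15.62-fold, chr4:145420627-145422189 at 16.95-fold and 13.87-fold, chr8:72085595-72086413 at 13.92-fold and 15.56-fold, and chr8:67041762-67042402 at 17.59-fold and 11.83-fold. So 2 of the 5 lay in the chromosome 4 windows, which held 58 and 51 of the 2867 pairs. These windows are in the group chosen for fold, so a ranking by fold favours them.

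Some peaks that overlapped none of the other list were also of high fold. In the AA-labelled list they were led by chr1:60503836-60504369 with 20 tags (12.2 to 30.9) at 17.82-fold, chr5:105017670-105018215 with 20 tags at 16.83-fold and chr18:37665134-37666161 with 28 tags at 16.50-fold. The next were chr1:52839525-52840451 at 15.79-fold and chr5:105669520-105670461 at 14.87-fold. These 5 lay in windows of the high-fold group, which was chosen for fold and holds 8.15% of the AA-labelled peaks in peak-rich windows and 26.3% of those enriched 10-fold or more. In the no-AA-labelled list they were led by chr1:153234653-153235035 with 21 tags (13.0 to 32.1) and chr8:72529120-72529846 with 22 tags, both at 16.01-fold, the highest fold of that list in these windows. They were followed by chr1:13945922-13946348 at 15.36-fold, chr13:66947205-66947813 at 15.12-fold and chr1:52780954-52781575 at 14.17-fold, and 1 of these 5 (the last) lay in that group. The group holds 8.68% of the no-AA-labelled peaks in peak-rich windows and 31.4% of those enriched 10-fold or more. The tags of the other library at such a site are unknown here, and no ratio was computed for it.

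The longest peaks were broad and weak. The longest AA-labelled one, chr8:91551192-91558241, measured 7050 bp and held 389 tags, the most of any AA-labelled peak in these windows, at 3.20-fold. The longest no-AA-labelled one, chr9:108012185-108017370, measured 5186 bp with 235 tags at 3.28-fold and was not shared. The most no-AA-labelled tags, 350, were in chr8:72066298-72069062, a peak of 2765 bp at 9.49-fold.

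In all, peaks of the peak-rich windows covered 8.29 Mb in the AA-labelled and 6.92 Mb in the no-AA-labelled list. They held 263916 and 282775 tags, or 2.22% and 1.54% of all kept tags, and 13.1% of the tags inside peaks in each list. By window, tags in peaks ran from 101 to 280 per 1000000 kept tags with a median of 180 in the AA-labelled library, and from 67.6 to 250 with a median of 123 in the other. Among peak-rich windows that at 146 Mb of chromosome 4 was the highest in both, but the next-densest windows reached 399 and 704. Beside the means of 62.4 and 43.3 over all other autosomal windows, the peak-rich windows had means of 183 and 127. These values depend on the peak numbers that chose the windows and are given as a description.

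Gaps and empty bins inside the windows are largely fixed by the number of peaks that chose them, and are given as a description. The median gap between neighbouring peaks of a list was 13.4 kb (quartiles 7.16 and 24.9 kb) in the AA-labelled and 12.5 kb (6.63 and 23.4 kb) in the no-AA-labelled list, against 22.7 and 21.6 kb in all other autosomal windows. The share of gaps under 1 kb was like that elsewhere, at 1.89% and 2.96% against 1.71% and 3.10%. Of the 1210 bins of 100 kb, 5 (0.413%) held no AA-labelled peak and 2 (0.165%) none of the other list, where next-densest windows had 2.02% and 1.31% and all other windows 20.6% and 17.3%. The longest gaps were 169 and 145 kb. The variance-to-mean ratio over the 10 bins of a window had a median of 0.768 and 0.806. It was nearly as low in next-densest windows, at 0.837 and 0.829, and was 1.00 and 1.03 in all other windows.

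Among the 10 fullest windows the chromosome 18 window had the widest range over its bins. Its bins of 100 kb held 1, 11, 1, 1, 6, 4, 10, 6, 12 and 5 AA-labelled peaks and 4, 15, 1, 1, 2, 5, 9, 5, 11 and 10 no-AA-labelled peaks, so both lists were dense in the second and ninth bins, with 1 peak each in the 2 bins after the first dense one. The window at 145 Mb of chromosome 4 held 13, 7, 9, 7, 7, 4, 6, 8, 5 and 5 AA-labelled peaks and 10, 11, 11, 13, 7, 6, 8, 11, 7 and 8 no-AA-labelled peaks, and no bin of it fell below 4. The 15 peaks in a bin of the chromosome 18 window and the 13 in the first bin of the chromosome 4 window were the highest of their lists in all peak-rich windows.

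The ground around peak-rich windows was also rich in peaks. Windows next to a peak-rich one, and not peak-rich themselves, numbered 152 and held a mean of 65.6 peaks (64.4 to 66.9), against 46.3 over all windows that were not peak-rich, and 123 of the 152 (80.9%) were above the median of these. Their means by list were 30.8 (AA-labelled) and 34.9, against 22.0 and 24.3. The mean went down to 56.5 at 2 Mb, 54.5 at 3 Mb, 49.9 at 5 Mb and 46.7 (45.6 to 47.7) at 10 Mb. Without chromosomes 1 and 8 it was 64.1 at 1 Mb and 44.2 at 10 Mb, against 45.8 over all. Single neighbours could be poor, and the lowest held 10 peaks in both lists together.

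**Figure D5:**
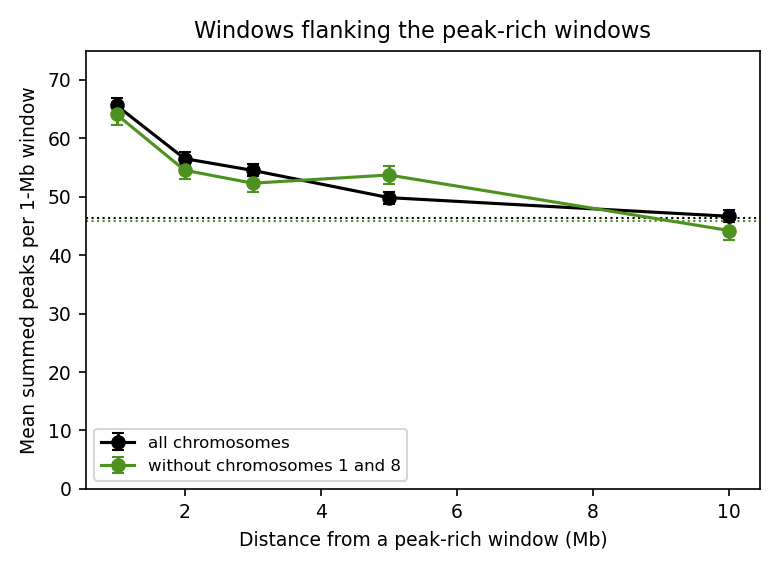
Mean summed peak number of 1-Mb windows at 1, 2, 3, 5 and 10 Mb from a peak-rich window, leaving out windows that are peak-rich themselves, for all autosomes (black) and without chromosomes 1 and 8 (green). Bars are 95% Poisson intervals of the mean and dotted lines the means of all windows that are not peak-rich (46.3 and 45.8). The black line goes down from 65.6 at 1 Mb to 46.7 at 10 Mb.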

How the data were processed

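The deposited data were 2 peak lists of mouse ES cell DNA pulled down for 5hmC, 1 library per group. Per the submitters' processing notes, the authors used BWA 0.5.9-r16, MACS 1.4.2 and build mm9. Each library was called alone with no control, at a p cutoff of 1e-05, with 1 tag kept per position and a regional background over 10000 bp, per the file headers. The deposited tag counts per peak are whole numbers that are not scaled. The deposited score is 10 times the −log10 of p. The deposited fold enrichment is a ratio to the caller's background. Score and fold were set within each library, and regions below the cutoff are not listed, so a missing peak does not show missing 5hmC. How reads with several possible positions were handled is not given in the sources used here.

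Tag densities are tags per kb and per 1000000 kept tags. Computed here were window sums, overlaps of at least 1 bp, one-to-one pairs (placed by the AA-labelled peak), Clopper-Pearson intervals of shares, exact conditional intervals of ratios and odds ratios, Poisson intervals of counts and order-statistic intervals of medians. The code was tested on simulated data. Python 3.11.15 with pandas 2.3.3, NumPy 2.4.6, SciPy 1.17.1 and matplotlib 3.10.9 was used. Without molecular identifiers tags may be copies of 1 molecule, so intervals cover counting error only.

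Named were the 10 fullest windows, all runs, the longest peaks, the 3 highest ratios, and the 3 lowest with the nearly equal next one. Also named were the 5 shared pairs and 5 unshared peaks per list of highest fold, and the 5 highest and lowest pair ratios. Windows and rules were chosen with earlier results of these data known.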

Additional observations from a re-analysis of the deposited data

How the results depend on the processing

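The settings without chromosomes 1 and 8 and without the 2 windows of chromosome 4 were chosen after seeing the data. Of 93 values under alternative settings 42 stayed within the interval of the main value (1.5 times for the number of windows), 45 moved and 6 reversed. The cause was not tested unless the setting itself gives it. With a sum of at least 80 there were 291 windows in place of 121, with shared percentages of 47.4 and 44.8 (50.7 and 46.9 before, AA-labelled list first), median lengths of 1197 and 914 bp (1231 and 947), an AA-labelled fold difference from other windows of -1.43 (-1.34) and 58.6 peaks in the nearest windows (65.6). The difference of the peak number log2 ratio from other windows was then 0.049, with an interval of 0.0094 to 0.089 (0.0098 before). With a sum of at least 100 there were 53 windows, with a peak number log2 ratio of -0.19 (-0.13), a difference of it from other windows of -0.052 (0.0098), shared percentages of 54.0 and 48.3, a no-AA-labelled length of 968 bp and 70.8 peaks in the nearest windows. A grid moved by 500 kb gave lengths of 1207 and 931 bp.

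With a p of at most 1e-10 the peak number log2 ratio reversed to 0.14, the shared percentages were 38.2 and 42.2, the tag density log2 ratio 0.30 (0.21), its difference from other windows -0.051 with an interval of -0.095 to -0.0068 (-0.0094 before), the lengths 1546 and 1221 bp and the fold differences -2.30 and -1.81 (-1.34 and -1.29). For 10-fold enrichment or more the same values were 0.99 (reversed), 17.3, 34.6, 0.15, -0.062, 942 bp, 725.5 bp, -0.54 and -0.38, and the difference of the peak number log2 ratio was 0.068. With 50% reciprocal overlap the shared percentages were 42.9 and 39.2. The tag density log2 ratio became 0.50 for tags per peak, and reversed to -0.42 without scaling and to -0.32 with scaling to tags inside peaks. When the lists were given to the samples named in the headers, the peak number log2 ratio reversed to 0.13, the tag density log2 ratio to -0.21, and its difference from other windows was 0.0094, by construction.

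Without chromosomes 1 and 8 there were 48 windows, with a peak number log2 ratio of -0.066, a shared AA-labelled percentage of 49.2, a tag density log2 ratio of 0.23, a no-AA-labelled length of 909.5 bp, a no-AA-labelled fold difference of -1.17 and 64.1 peaks in the nearest windows. Both fold differences from other windows stayed below 0 under every setting tried for them. No paired analysis was possible because there is only 1 library in each group, which also leaves none to omit. Depth differed between the libraries by 1.55 times, and a site in 1 list alone has no tag count in the other.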
